A study of Arabidopsis thaliana with 4 samples.

Results

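Cytochrome P450 genes were followed in leaves of KO-nudx19 plants, which lack the NADPH-cleaving Nudix hydrolase 19, and of wild-type Arabidopsis thaliana. The members are all probe sets (groups of probes designed for 1 transcript) that name exactly 1 gene whose symbol begins with CYP, then 2 or 3 digits, then a letter. They are 23 probe sets for 23 genes, of 22810 probe sets on each Affymetrix ATH1 array, and no filter on signal was used to choose them. Both groups had the Col-0 background and were sampled as rosette leaves at 3 weeks, after 1 week on medium with 3% sucrose and another 2 weeks in soil (days of 16 h at 100 µmol m−2 s−1 and 25 °C, nights of 8 h at 22 °C). Each genotype had 2 arrays, numbered 1 and 2. The labels name neither the mutation in KO-nudx19 nor what the replicate number stands for, and do not say whether the numbered samples were separately grown plants, so the p-values cover the spread among these 4 arrays alone, part of which may be technical.

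P450 enzymes are heme-containing monooxygenases that insert oxygen from O2 into a substrate. Most plant P450s sit in the membrane of the endoplasmic reticulum and receive electrons from NADPH through cytochrome P450 reductase. They are grouped by sequence into families, and families into clans. The CYP71 clan is the largest in plants and holds many enzymes of specialised metabolism, such as those of glucosinolates, phenylpropanoids and terpenoids, while the CYP51 clan holds the sterol 14-demethylase.

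Of the 23 members, 22 belong to the CYP71 clan and 1, CYP51G2, to the CYP51 clan. The other clans had no member and were not analysed here, so the account by clan is in effect one of the CYP71 clan. In the annotation used, 8730 probe sets are unnamed, and any P450s among them could not be members. The members span 5 families, and 19 of them are CYP71B genes, out of 36 CYP71B genes in the RefSeq annotation of TAIR10.1. The remaining CYP71-clan members are CYP78A9, CYP79A2 and CYP84A4. RefSeq lists 236 genes with symbols of this form, so the members are a small part of the family.

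Same-numbered arrays were more alike than arrays of 1 genotype. Across probe sets with a mean signal of at least 37.1, log2 signals had a correlation of 0.926 for the KO-nudx19 pair and 0.928 for the wild-type pair. The pair numbered 2 gave 0.965 and the pair numbered 1 gave 0.972. The mean signal, with the highest and lowest 2% left out, was 200 on all 4 arrays. The mesophyll gene RCA (Rubisco activase) had signals of 14928 and 19541 in KO-nudx19 and 11113 and 13711 in wild type, and FAMA, a regulator of guard cells, had signals of 77.5 to 85.8 over the 4 arrays. No marker of root, flower, vascular tissue, epidermis or trichomes had a named probe set, and NUDX19 had none that could check the genotype labels. The electron donors of P450s and the P450s known under other symbols likewise lacked a named probe set (not analysed here).

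Which P450 genes gave signal in leaves was read against the 40th percentile of all signals, 37.1 array units, because detection calls were not used here. On every array 11 members were above this level, all of the CYP71 clan. On every array 10 were below it, 9 of the CYP71 clan and CYP51G2. The other 2, CYP84A4 and CYP71B36, lay on both sides of it. The 11 are 47.8% of the members, against 54.7% of all probe sets and 49.2% of those that name 1 gene, and the 10 are 43.5%, against 34.8% and 40.2%. With the level at the 60th percentile (108) only CYP71B26, CYP71B6, CYP71B22, CYP71B28 and CYP71B34, 5 members, stayed above it on every array. Probe sets bind their targets with different strength, so each signal is set against this level and not against that of another gene. The level itself comes from all probe sets, so a member's side of it also depends on how strongly its probe set binds. In whole leaves, fewer cells of a type and less RNA per cell cannot be told apart.

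**Figure D1:**
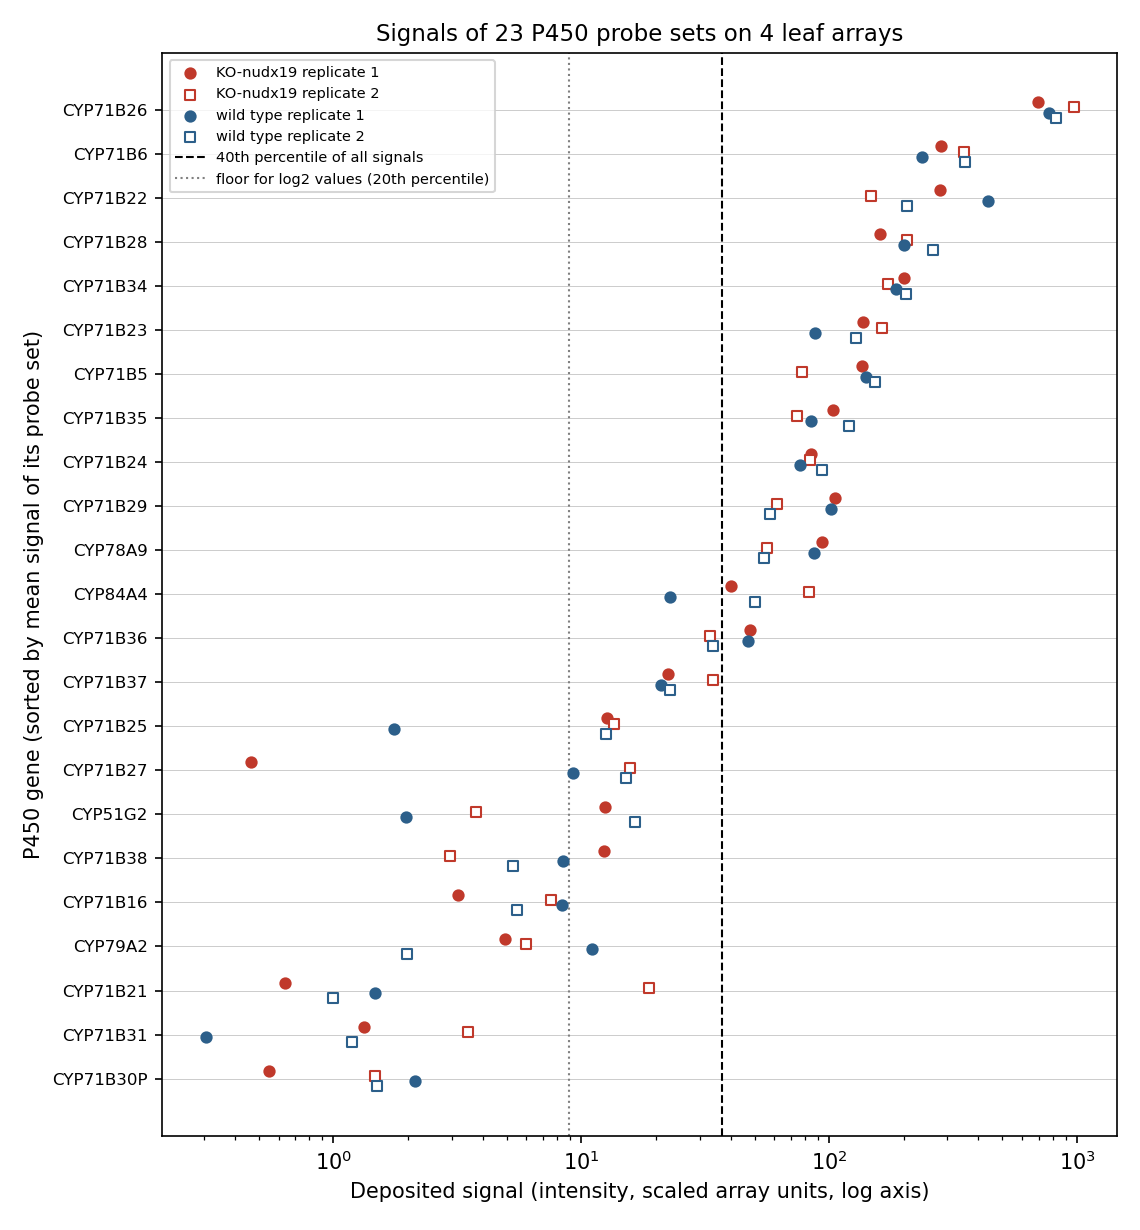
Signals of the 23 P450 probe sets on a log axis (intensity in scaled array units), with KO-nudx19 in red and wild type in blue, filled circles for arrays numbered 1 and open squares for arrays numbered 2. The dashed line is the 40th percentile of all signals (37.1) and the dotted line the floor of the log2 values (8.92). The 11 members above the dashed line on every array range from 54.6 to 973, and the 10 below it on every array from 0.305 to 34.0.

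CYP71B26 (AT3G26290) had signals of 695 and 973 in KO-nudx19 and of 770 and 825 in wild type, far above the level on each array. CYP71B6 (AT2G24180), which turns indole-3-acetonitrile into indole-3-carbaldehyde, had 282 and 349 in KO-nudx19 and 237 and 352 in wild type. The wild-type arrays of both genes lay between or around those of KO-nudx19, so the genotypes overlapped. CYP71B34 (AT3G26300) had 201 and 172 in KO-nudx19 and 187 and 205 in wild type, CYP71B35 (AT3G26310) had 104 and 74.0 against 84.5 and 120, and CYP71B24 (AT3G26230) had 84.8 and 83.5 against 76.2 and 93.9. These 3 also overlapped, and in each the genotype difference had opposite signs within number 1 and within number 2. CYP78A9 (AT3G61880), of a family that promotes organ growth and known for its effect on fruit and seed size, had 93.8 and 55.9 in KO-nudx19 and 87.0 and 54.6 in wild type. CYP71B29 (AT1G13100) had nearly the same pattern, with 105 and 61.9 against 101 and 57.8, in both genotypes higher on the array numbered 1.

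Members with a known role were also among those below the level. CYP79A2, which converts phenylalanine to its aldoxime on the way to benzylglucosinolate, had 4.90 and 5.99 in KO-nudx19 and 11.1 and 1.98 in wild type. CYP71B31, which oxidises linalool in flowers, had 1.32 and 3.49 against 0.305 and 1.19. CYP51G2, a transcribed pseudogene in RefSeq and a relative of the sterol 14-demethylase CYP51G1, had 12.5 and 3.78 against 1.96 and 16.4. Of the 40 signals of the 10 members below the level, 25 were also under the floor of 8.92 (the 20th percentile of all signals), and 3 members, CYP71B16, CYP71B30P and CYP71B31, were under it on all 4 arrays. CYP71B27, likewise a transcribed pseudogene in RefSeq, had 0.465 and 15.7 in KO-nudx19 and 9.25 and 15.1 in wild type. CYP71B21 stood out by 1 array, with 0.637 and 18.8 in KO-nudx19 and 1.47 and 0.994 in wild type, all below the level. CYP71B37 came closest to the level, with 22.3 and 34.0 in KO-nudx19 and 20.9 and 22.7 in wild type. CYP71B25 had 12.7 and 13.6 against 1.76 and 12.6, where wild type replicate 1 was apart from the rest. CYP71B38 ranged from 2.96 to 12.3, CYP71B16 from 3.19 to 8.35 and CYP71B30P from 0.551 to 2.14 over the 4 arrays. Such values lie below a level chosen for this comparison. Without detection calls they do not show whether a transcript was detected or absent.

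Several members are neighbours on their chromosome. The longest run, from CYP71B16 to CYP71B37 on chromosome 3, holds 11 members among 24 genes in the RefSeq order, of which 18 are P450s. Of these 11, 6 were above the level on every array (CYP71B22, CYP71B23, CYP71B24, CYP71B26, CYP71B34 and CYP71B35), 4 were below it (CYP71B16, CYP71B21, CYP71B25 and CYP71B37), and CYP71B36 was on both sides. Genes next to each other in this run thus differed in state: CYP71B21 was below the level on all 4 arrays, and CYP71B22, the adjacent gene, had 281 and 148 in KO-nudx19 and 439 and 207 in wild type. A probe set naming both CYP71B20 and CYP71B19, of the same run, is not a member and had 593 and 834 in KO-nudx19 and 488 and 843 in wild type. In a run of 3 members on chromosome 1, CYP71B28 and CYP71B29 were above the level and CYP71B27 below it. In another on chromosome 3, CYP71B5 was above it, and CYP71B30P and CYP71B31 were below it. Closely related CYP71B genes may share probe binding, and probe sets differ in binding strength, so the values of single neighbours are uncertain to that extent. CYP718, a P450 whose symbol carries no letter and which was looked up after the members were seen, had 1.25 and 2.06 in KO-nudx19 and 1.61 and 1.66 in wild type.

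The study's comparison asked which transcripts differ when NUDX19 is absent. No P450 member passed the test between the genotypes by limma, a linear model that shares the spread over probe sets. The 13 members whose mean signal was at least 38.2 (the 40th percentile of mean signals) were tested, all of the CYP71 clan. With Benjamini-Hochberg adjustment over 13648 probe sets, 0 of the 13 passed, and 0% of all probe sets did. With the replicate number as a block 0 of the 13 passed as well, against 0.0147% of all. Without the block, none of the 13, and 89 of the 13648, had an unadjusted p under 0.05. With it, 2 of the 13 and 738 of the 13648 did. Of the 13, 6 had a log2 difference (KO-nudx19 minus wild type) above 0 and 7 below, with a median of −0.008, against a median of −0.00029 over all tested probe sets.

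CYP71B23 (AT3G26210) and CYP71B5 (AT3G53280) were the 2 tested members whose arrays did not overlap between the genotypes. CYP71B23 had 137 and 164 in KO-nudx19 and 88.0 and 128 in wild type. Both KO-nudx19 arrays were above both wild-type arrays, and the nearest values lay 1.07-fold apart. Its log2 difference was 0.50 (SE 0.31, 95% confidence interval −0.26 to 1.25, adjusted p = 1.00 in limma), or 0.64 within number 1 and 0.35 within number 2, and it was 0.23 without wild type replicate 1 and 0.77 without wild type replicate 2. CYP71B5 had 135 and 77.6 in KO-nudx19 and 141 and 153 in wild type, so that KO-nudx19 replicate 2 alone was far from the rest. Its log2 difference was −0.52 (SE 0.35, interval −1.37 to 0.33), but −0.065 within number 1 and −0.98 within number 2, and leaving out KO-nudx19 replicate 2 gave −0.12, while leaving out KO-nudx19 replicate 1 gave −0.92. These 2 of 13, 1 higher and 1 lower in KO-nudx19, are 15.4%, against 22.3% of all tested probe sets (10.5% higher and 11.8% lower). Over all 23 members 5 did not overlap, 21.7% against 24.5% without the filter. The 3 added, CYP71B25, CYP71B31 and CYP71B30P, had every signal below the level.

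The widest log2 differences between the genotypes were those of CYP84A4 and CYP71B22, whose arrays overlapped. CYP84A4 (AT5G04330), which makes a precursor of arabidopyrones from a phenylpropanoid, had 40.3 and 82.9 in KO-nudx19 and 22.7 and 50.4 in wild type. On each number the KO-nudx19 array was the higher, by 0.83 and 0.72 on the log2 scale, and the genotypes overlapped because KO-nudx19 replicate 1 lay under wild type replicate 2. The pooled log2 difference was 0.77 (SE 0.57, interval −0.63 to 2.17). It was 1.29 and 0.25 without KO-nudx19 replicates 1 and 2, 0.20 and 1.35 without wild type replicates 1 and 2, and 0.42 after raising the floor to the 40th percentile. CYP71B22 (AT3G26200) had a log2 difference of −0.56 (SE 0.48, interval −1.73 to 0.60), with −0.64 and −0.49 for the arrays numbered 1 and 2. It was −1.03 and −0.10 without KO-nudx19 replicates 1 and 2, and −0.02 and −1.10 without wild type replicates 1 and 2. CYP71B28 (AT1G13090) had 160 and 207 in KO-nudx19 and 200 and 263 in wild type, lower in KO-nudx19 by 0.32 and 0.35 within the numbers, a pooled log2 difference of −0.33 (SE 0.28) that ranged from −0.53 to −0.14 with 1 array left out. In CYP84A4, CYP71B22 and CYP71B28, leaving out any of the 4 arrays moved the pooled value by over 1.5 times. With 1 array left out of this fit without the number, the difference between the numbers enters the genotype value. These moves therefore do not show how well the difference repeats within the numbers, where it kept its sign in each of these genes. CYP84A4 and CYP71B22 did not pass with the replicate number as a block either (adjusted p = 0.880 and 0.796 in limma).

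**Figure D2:**
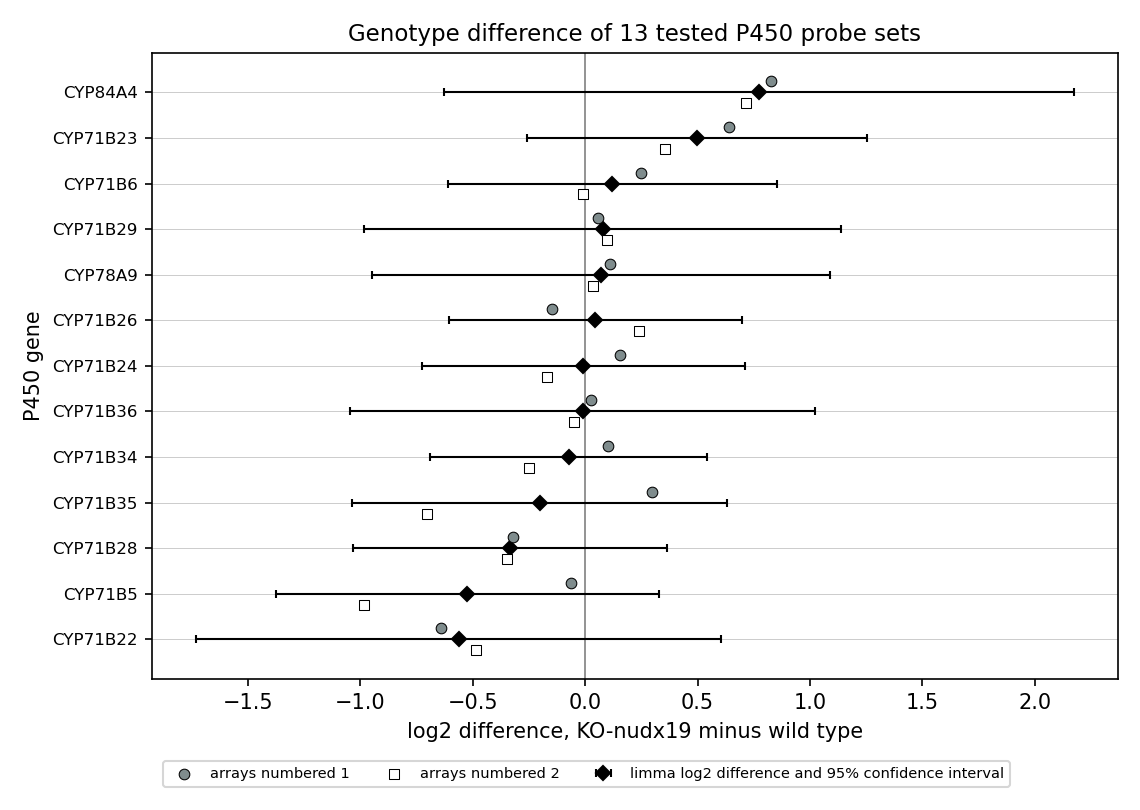
Log2 differences, KO-nudx19 minus wild type, of the 13 tested P450 probe sets on the horizontal axis. Diamonds are the limma estimates with 95% confidence intervals, filled circles the difference for the arrays numbered 1 and open squares that for the arrays numbered 2. Every interval of this fit without a replicate block holds 0, and in 6 of the 13 the 2 numbers lie on opposite sides of 0.

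Within the numbers, the genotype difference was above 0 on both for 4 of the 13 tested members, below 0 on both for 3 and of opposite sign for 6. For the pooled differences, the half-width of the 95% confidence interval ranged from 0.62 to 1.40 on the log2 scale, with a median of 0.83, that is 1.78-fold. Differences up to that size lay within the interval of a typical member around 0. These widths come from the fit without the replicate number. With the number as a block, the median half-width over all tested probe sets was 0.52, against 0.76 without it. The hybridisation controls, which do not come from the plant, had geometric means of 1054 and 1140 in KO-nudx19 and 620 and 411 in wild type. Their part in the genotype differences was not tested.

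The P450 members were next compared between the arrays numbered 2 and those numbered 1, with genotype as a term in limma. CYP71B22 was the only member that passed. It had 148 in KO-nudx19 and 207 in wild type on the arrays numbered 2, against 281 and 439 on those numbered 1. Both arrays numbered 2 were below both numbered 1, a log2 difference of −1.01 (SE 0.24, adjusted p = 0.00757 in limma), with −0.93 in KO-nudx19 and −1.08 in wild type. The call was lost without KO-nudx19 replicate 2 (−0.76, adjusted p = 0.126) and without wild type replicate 1 (−0.68, adjusted p = 0.269), and when dim probe sets were kept (adjusted p = 0.410). This 1 of 13 lower member compares with 6.32% of all tested probe sets called lower on the arrays numbered 2, and 0 of 13 called higher with 4.93%. In either direction 11.2% of all tested probe sets passed.

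CYP84A4 had the widest difference in the other direction and missed the threshold. Its signals were 82.9 in KO-nudx19 and 50.4 in wild type on the arrays numbered 2, against 40.3 and 22.7 on those numbered 1, a log2 difference of 1.09 (SE 0.36, adjusted p = 0.0524 in limma). It passed after quantile normalization (1.08, adjusted p = 0.0343), after centring on the median (1.16, adjusted p = 0.0388), with a model of the spread without a trend (adjusted p = 0.0179), with robust fitting (adjusted p = 0.0404) and without wild type replicate 2 (1.45, adjusted p = 0.046). It missed in the other alternatives run, among them the floor at the 40th percentile (0.74, adjusted p = 0.0919), the model with no genotype term (adjusted p = 0.121) and the fit that kept dim probe sets (adjusted p = 0.418). The difference was 0.74 without KO-nudx19 replicate 2 (adjusted p = 0.362) and 0.68 without wild type replicate 1 (adjusted p = 0.479), against 1.51 without KO-nudx19 replicate 1 (adjusted p = 0.0975).

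CYP71B29 and CYP78A9 were lower on both arrays numbered 2 without passing. CYP71B29 had 61.9 in KO-nudx19 and 57.8 in wild type on the arrays numbered 2, against 105 and 101 on those numbered 1, a log2 difference of −0.79 (SE 0.28, adjusted p = 0.0756 in limma). CYP78A9 had 55.9 and 54.6 against 93.8 and 87.0, a difference of −0.71 (SE 0.29, adjusted p = 0.129 in limma). In both genes the genotypes were close within each number, and the numbers lay 1.64-fold and 1.56-fold apart at their nearest values. CYP71B36 (AT3G26320) showed the same order at lower signal, with 33.0 and 34.1 against 48.0 and 47.2 (log2 difference −0.51, SE 0.37), and was above the level of 37.1 only on the arrays numbered 1. Higher on both arrays numbered 2 were CYP71B6, with 349 and 352 against 282 and 237 (0.44, SE 0.24), CYP71B28, with 207 and 263 against 160 and 200 (0.38, SE 0.24), and CYP71B26, with 973 and 825 against 695 and 770 (0.29, SE 0.22), none of them passing.

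**Figure D3:**
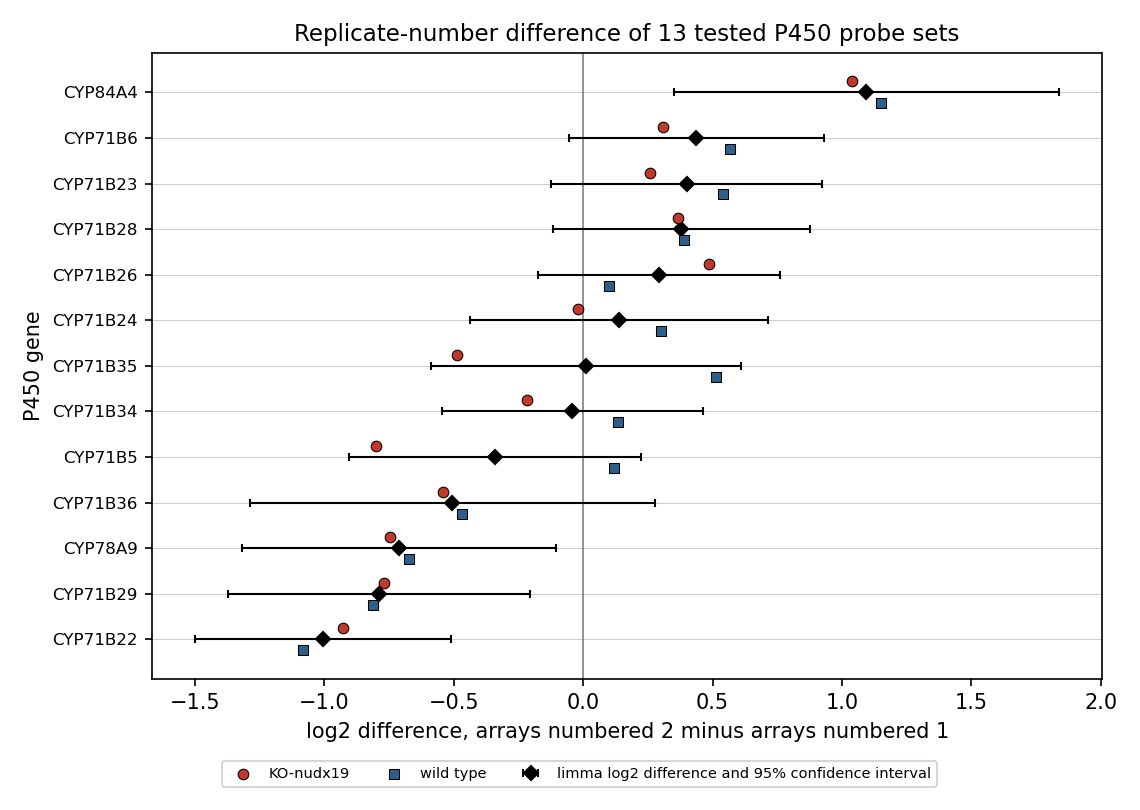
Log2 differences, arrays numbered 2 minus arrays numbered 1, of the 13 tested P450 probe sets on the horizontal axis. Diamonds are the limma estimates with 95% confidence intervals, red circles the difference in KO-nudx19 and blue squares that in wild type. CYP71B22 (−1.01) and CYP84A4 (1.09) lie farthest from 0, and red and blue lie on opposite sides of 0 for 4 members.

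In all, 8 of the 13 tested members did not overlap between the numbers, 4 higher and 4 lower on the arrays numbered 2. This is 61.5%, against 54.4% of all tested probe sets (23.6% higher and 30.8% lower). Over all 23 members it was 11, or 47.8%, against 50% without the filter. The median log2 difference of the 13 was 0.01, against −0.05 over all tested probe sets. Bacterial poly(A) transcripts, which are spiked into RNA samples as controls, had geometric means of 21.0 in KO-nudx19 and 19.9 in wild type on the arrays numbered 2, against 98.2 and 116 on those numbered 1. The ratio of 3′ to 5′ actin signal, which goes up as RNA is shortened, was 5.17 in KO-nudx19 and 4.27 in wild type on the arrays numbered 2, against 2.92 and 2.30 on those numbered 1. The GAPDH ratio was 1.38 and 1.15 against 0.986 and 1.01, and the ubiquitin ratio 1.95 and 1.44 against 1.49 and 1.53, lower on the array numbered 2 in wild type. The part of these controls in the P450 differences was not tested.

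Few genes of the pathways in which P450s act had a named probe set: 4 of 63 listed partners. The lists cover P450 pathways at large, not only those of the members. In the glucosinolate list, 2 of 11 were measured. BCAT4, which starts the chain elongation of methionine, had 7401 in KO-nudx19 and 7214 in wild type on the arrays numbered 2, against 2851 and 1491 on those numbered 1, a log2 difference of 1.83 (SE 0.21, adjusted p = 7.4e-06 in limma, and 0.418 when dim probe sets were kept). UGT74B1, a glucosyltransferase of the core pathway, was also higher there, with 953 and 858 against 628 and 681, and did not pass (log2 difference 0.47, SE 0.22). HCT of the phenylpropanoid list, which forms the ester that a CYP98A enzyme hydroxylates, had 1692 and 1064 in KO-nudx19 and 1567 and 1563 in wild type. LCYB (LYC in RefSeq), which closes the rings of carotenes, had 453 and 389 in KO-nudx19 and 478 and 600 in wild type, without overlap. Of all tested probe sets, 22.3% likewise did not overlap between the genotypes. The log2 difference of LCYB was −0.35 (SE 0.25), and −0.52 to −0.19 with 1 array left out. None of the 4 passed between the genotypes (adjusted p = 1.00 in limma for each), and BCAT4 alone passed between the numbers. Of all tested probe sets, 0% passed between the genotypes and 11.2% between the numbers.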

How the data were processed

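The authors deposited 1 intensity value for each probe set on each array, made with GCOS per the submitters' processing notes. For background correction, probe summary and scaling target, no method is stated in those notes or the labels. The equal trimmed means show that the authors' values were scaled to a common mean, which leaves differences in spread in place. Groups come from the sample titles. Probe sets were named from the platform's annotation table, and their gene identifiers gave current RefSeq symbols (TAIR10.1); 13513 named 1 gene, 503 several, 8730 are unnamed here, and 64 are controls. Genomic coordinates are not given, since the values name no build.

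Signals under the 20th percentile (8.92) were set to it and log2 was taken. Controls and probe sets with a mean under 38.2 were left out, and limma 3.58.1 (R 4.3.3; lmFit, eBayes with a trend) was run on the remaining 13648 with Benjamini-Hochberg adjustment and a threshold of 0.05. Genotype was fitted alone. Replicate number was fitted with genotype as a term. The floor understates changes of dim transcripts. The code was tested on simulated arrays. The number of arrays limits the precision.

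An exact test of 1 probe set with 2 against 2 arrays cannot pass, so only the fit across probe sets was used. The members, clans, gene lists and tests were chosen with earlier results of these data known. Genes were named from the called members, the brightest members, the brightest of each clan and role group, the widest genotype gaps and the longest run of neighbours. Alternatives were other scalings, floors, filters, variance models, the replicate block and leaving out each array. Same-numbered arrays deviated together (correlation 0.553 across probe sets), but with 2 pairs and no label on the number this is a hint from the data only. Figures were drawn with matplotlib 3.10.9.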

Additional observations from a re-analysis of the deposited data

Results flagged for a closer look

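For 5 members the difference between the arrays numbered 2 and those numbered 1 ran one way in KO-nudx19 and the opposite way in wild type. Each direction rests on 1 pair of arrays and the contrast between the genotypes was not tested. On the floored log2 scale, CYP71B35 differed by −0.49 in KO-nudx19 and 0.51 in wild type, a contrast of −0.998. CYP71B5 differed by −0.80 and 0.12, a contrast of −0.92. CYP71B34 differed by −0.22 and 0.13 (contrast −0.35) and CYP71B24 by −0.02 and 0.30 (contrast −0.32). CYP51G2, whose signals were all below the level of 37.1, differed by −0.48 and 0.88 (contrast −1.36).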

How the results depend on the processing

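The count of P450 members called between the genotypes was 0 in limma under every scaling, floor, filter, variance model, the replicate block and each left-out array. At an unadjusted p under 0.05 it was 0 of 13 as reported, 2 with the replicate block, where 738 of 13648 probe sets (5.41%) reached it, and 1 without wild type replicate 2, where 195 (1.43%) did. Over all probe sets the genotype count was 0 as reported, 2 with the replicate block, and 0 to 10 with 1 array left out, the 10 without wild type replicate 1. Between the numbers, 1535 probe sets were called as reported, 1012 with the filter at the 60th percentile and 0 with no filter (2705 at an unadjusted p under 0.05), where dim probe sets joined the fit. It was 521 to 1242 with 1 array left out, lowest without KO-nudx19 replicate 1 (521) and without wild type replicate 1 (536). The count of P450 members called between the numbers was 1 as reported, 0 with no filter, and 2 after quantile normalization, after centring on the median, without a trend and with robust fitting. Under these last 4, 1853 (13.6%), 1348 (9.88%), 1190 (8.72%) and 1623 (11.9%) of all tested probe sets were called. It was 0 to 2 with 1 array left out. The cause of these shifts was not tested. The number of members above the level on every array was 11 as reported, 5 at the 60th percentile (108), 14 at the 20th, and 11 to 12 with 1 array left out. Of 219 alternative values of the 16 named differences (13 of P450 members and 3 of partner genes), 210 kept direction and side of the threshold, 4 no longer passed, 5 newly passed and 0 reversed. All 5 new passes were of CYP84A4, and the 4 losses of CYP71B22 and BCAT4, each between the numbers. The named genotype differences were far from the threshold in every alternative, so keeping their side of it says little. With 1 array left out, the lone array of a group is assumed to vary like the others. In the genotype fits of this kind, the difference between the numbers also enters the value.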
